A study of Sus scrofa with 6 samples.

Results

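A group of 59 genes in porcine oocytes was higher in both heat-stressed samples than in every control and every NMN-supplemented sample. The genes were chosen by their values. Of the 29861 genes in the deposited table, 4713 had a mean of at least 1 FPKM (fragments per kilobase of transcript, scaled to the number of mapped fragments) over the 6 samples. A gene was taken when its lower heat-stressed sample lay above the other 4 samples and when the mean of the heat-stressed samples exceeded the control mean and the NMN-supplemented mean by at least 0.2 each, as a log2 ratio of mean FPKM plus 1. The order alone was met by 184 genes and all conditions on values by 99. Of these, 40 were dropped because their names begin with 1 of 14 prefixes, mainly LOC (34 genes), which left 59. The others dropped had ribosomal, transporter or zinc finger prefixes. The shares over tested genes given below keep all names, so they include genes that could not be members. Since the values of the heat-stressed samples chose the genes, their higher level under heat and lower level with NMN are a description and were not tested.

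The 6 samples were oocytes of Sus scrofa, 2 for each of 3 groups: control, heat stress, and heat stress with NMN (nicotinamide mononucleotide, a precursor of NAD+) in the medium. Genotype, strain and age of the animals are not given in the labels. The labels give a stage of GV (germinal vesicle, the immature oocyte) and a time of 24 hours for every sample, whereas the study's methods describe pools of metaphase II oocytes matured in vitro from cumulus-oocyte complexes of abattoir ovaries, so the stage is stated here as unresolved. Nothing in the labels says that the 2 samples of a group came from separate animals or collections, so the P values below measure only the spread between these samples. A pool of oocytes gives the level of a transcript relative to all transcripts, and fewer oocytes expressing a gene cannot be told apart from less RNA in each oocyte.

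The sequencing depth cannot be read from the FPKM values. Of 20 oocyte marker genes in the table, 18 to 19 per sample were at or above 1 FPKM, with a summed level of 3522 to 4160. The 31 markers of cumulus and granulosa cells summed to 10.4 to 21.3, with 2 to 3 genes at or above 1 FPKM and 11 to 19 at 0. The 22 markers of theca, stroma and blood summed to 0.865 to 2.13, with none at or above 1. The summed cumulus level was 15.8 and 12.4 in the heat-stressed samples, within the 10.4 to 21.3 seen over all samples. Heat-stressed replicate 1 stood apart in its summed FPKM, 290136 against 163929 to 239211 in the other 5 samples. A single locus, LOC100513953, took 13.9% of that sum and was at 0 in the other 5 samples. Without this locus and the mitochondrial genes its sum was still the highest, 1.11 times the mean over samples, against 0.94 to 1.02. The 13 protein-coding genes of the mitochondrial genome took 61.7% to 74.7% of the summed FPKM.

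Heat unfolds proteins, and cells answer with heat shock factors that bind repeats of a short unit with GAA at its centre in the promoters of chaperone genes. The chaperones hold or refold client proteins, with HSP70 and HSP90 families at the core and co-chaperones that set their cycle. A fully grown oocyte transcribes little, so its transcript levels are set largely by storage, translation and decay of RNA made earlier.

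HSPA6 (chromosome 4, a stress-inducible HSP70) carried the pattern GAANNTTC 3 times in the window from 250 bases before to 50 bases after its gene start (RefSeq, Sscrofa11.1), at positions -243, -176 and -97 from the start. Windows were searched on both strands, for GAANNTTC and for the reverse order TTCNNGAA, each of which is its own reverse complement. The upstream 250 bases of HSPA6 and of 2 other members with such a pattern are shown, with each match in capitals. Each pattern joins GAA to its reverse complement and is shorter than a full run of repeats. Binding of heat shock factors to these stretches was not tested. The HSPA6 stretch was chr4:88973110-88973359 on the minus strand. TNFSF18, a ligand of the tumour necrosis factor family, was read at chr9:115460650-115460899 on the minus strand. MCL1, an anti-apoptotic BCL2 relative, was read at chr4:98561842-98562091 on the plus strand.
HSPA6: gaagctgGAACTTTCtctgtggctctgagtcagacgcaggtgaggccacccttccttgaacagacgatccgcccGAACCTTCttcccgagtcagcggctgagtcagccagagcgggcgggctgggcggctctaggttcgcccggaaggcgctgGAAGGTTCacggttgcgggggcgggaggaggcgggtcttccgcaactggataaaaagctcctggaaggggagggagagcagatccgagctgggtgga
TNFSF18: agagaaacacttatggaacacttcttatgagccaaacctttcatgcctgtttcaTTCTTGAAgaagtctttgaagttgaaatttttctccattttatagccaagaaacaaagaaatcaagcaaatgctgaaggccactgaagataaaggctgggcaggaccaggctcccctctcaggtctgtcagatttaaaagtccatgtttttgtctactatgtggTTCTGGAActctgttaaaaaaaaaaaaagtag
MCL1: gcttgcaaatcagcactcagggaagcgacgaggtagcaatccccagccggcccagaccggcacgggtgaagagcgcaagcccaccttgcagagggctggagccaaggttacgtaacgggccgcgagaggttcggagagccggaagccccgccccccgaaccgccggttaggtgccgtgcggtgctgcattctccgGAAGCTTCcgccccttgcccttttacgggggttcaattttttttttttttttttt

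Among the 57 members with a promoter window, 7 held GAANNTTC (12.3%, against 6.13% of 4699 tested promoters), namely ELOA, HSPA6, IMP4, LYPLA1, MAT2B, MCL1 and RBM12B. TTCNNGAA was found in 9 (15.8%, against 7.26%), among them HSPH1, TNFSF18, MOCS3 and SUPT7L. Either pattern was present in 15 members (26.3%, against 12.4%), with ELOA holding both. The window of HSPA6 was 1 of 5 among the 4699 with 3 or more matches. The CCAAT box was in 36.8% of member windows and in 39.1% of tested windows, and the GC box GGGCGG in 52.6% and 57.9%. The TATA box TATAAA was in 15.8% and 9.92%. The patterns are matches of letters and were not shown to be bound.

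Across the 59 genes the ratio of mean FPKM, heat-stressed over control, ranged from 1.16 to 4.05 with a median of 1.61, and the ratio of heat-stressed over NMN-supplemented from 1.17 to 25.8 with a median of 1.45. Most members were weakly expressed: 27 of 59 had a mean under 2 FPKM (45.8%, against 31.9% of tested genes) and 44 were under 5. The other 15 were at 5 FPKM or more, as were 1672 of the 4713 tested genes, so low levels were common among tested genes too. The median of mean FPKM was 2.13 in members and 3.15 in tested genes. Median log2(FPKM + 1) over the members was 1.51 in both control samples, 2.10 and 1.89 in heat-stressed replicates 1 and 2, and 1.47 and 1.57 in the NMN-supplemented replicates. Replicate 1 was the higher of the heat-stressed samples in 39 of 59 members (66.1%), against 49.9% of tested genes. Grouped by role, the median difference from control lay between 0.38 (chaperones) and 0.53 (survival, ligands and receptors) as log2 of means plus 1, and the median difference from NMN-supplemented samples between 0.23 (RNA processing) and 0.55 (survival, ligands and receptors). As background, heat-stressed samples were both above the other 4 in 3.9% of the tested genes, 184 genes, and both below in 271. Control samples were both above the other 4 in 791 genes and both below in 1269. NMN-supplemented samples were both above in 1318 and both below in 598, so heat-stressed above was the least common of these orders.

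**Figure D1:**
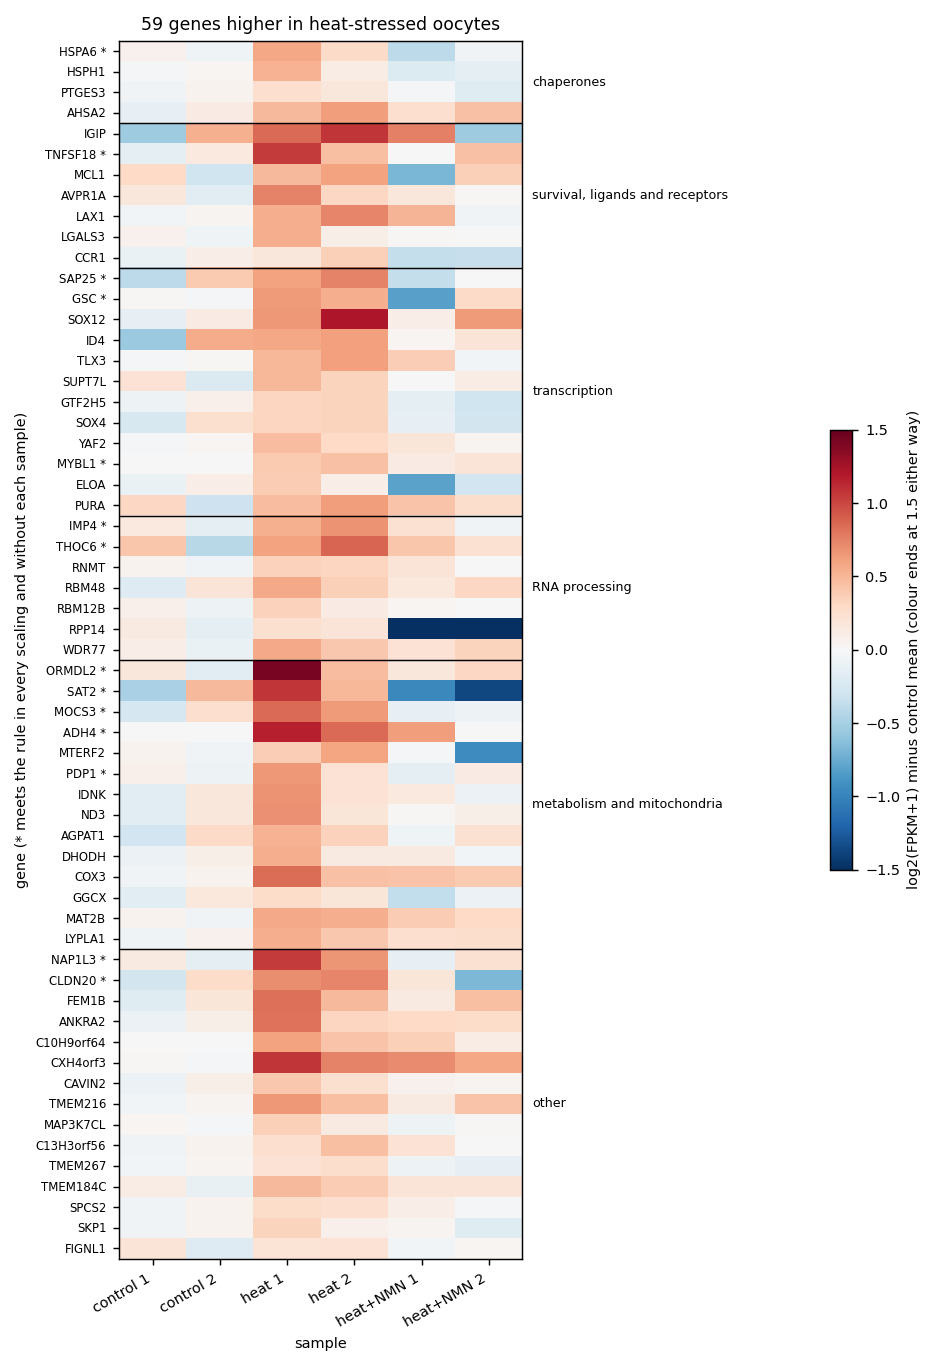
Each row is a gene, each column a sample, and colour gives log2(FPKM + 1) minus the mean of the 2 control samples. In all 59 rows both heat-stressed columns are redder than the other 4, while the NMN-supplemented columns range from well above the control for CXH4orf3 to far below it for RPP14 and SAT2.

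**Figure D2:**
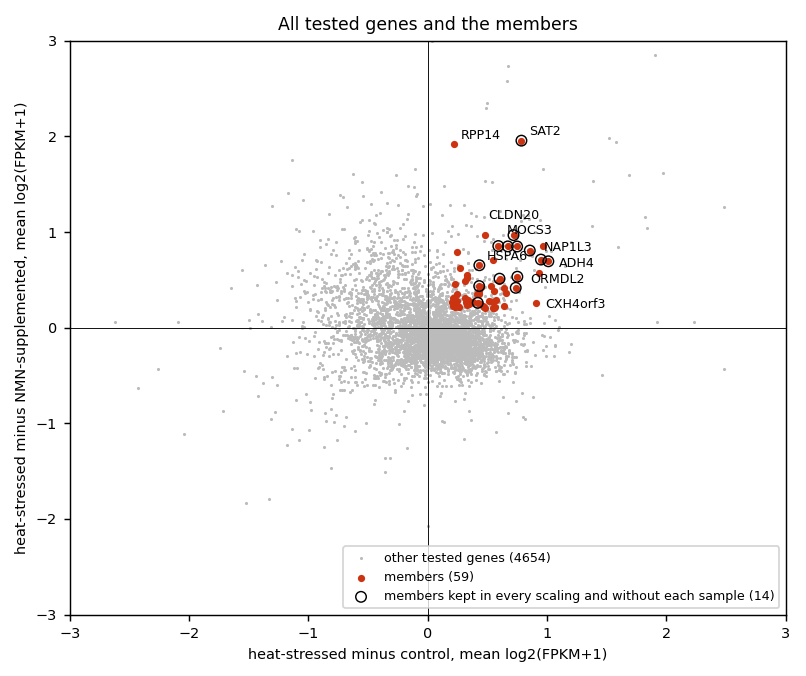
Each point is a tested gene, with the heat-stressed minus control difference on the horizontal axis and the heat-stressed minus NMN-supplemented difference on the vertical axis, both in log2(FPKM + 1). Members lie in the upper right, where the limits of 0.2 place them, and 1 of the 4713 genes lies outside the axes. As log2 of means plus 1, 32 of the 59 had both differences at 0.3 or more. The axes plot differences of mean log2(FPKM + 1), which depart slightly from that measure.

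Chaperones and co-chaperones gave 4 members. HSPA6 was at 5.13 and 4.57 FPKM in the control samples, at 7.73 and 6.13 under heat and at 3.47 and 4.64 with NMN. HSPH1, an HSP110 that exchanges nucleotides on HSP70, was at 1.40 and 1.49, then 2.50 and 1.65, then 1.12 and 1.22. Heat-stressed replicate 2 of HSPH1 was close to the controls, and the NMN-supplemented samples lay below them. PTGES3, the p23 co-chaperone of HSP90, was at 1.22 and 1.39, then 1.75 and 1.59, then 1.27 and 1.02. AHSA2, a relative of the HSP90 activator AHSA1 that was not on the chaperone list, was at 6.39 and 7.73, then 10.2 and 11.4, then 8.58 and 9.93, so NMN-supplemented oocytes kept a level above control.

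Of 62 genes on the wider chaperone list, 30 were tested and 3 were members, where 59 of all 4713 tested genes were. Heat-stressed against control, 1 of the 30 was higher (the member HSPA6, which the rule chose for it) and 5 were lower at an unadjusted limma P under 0.05, where 12.7% of all tested genes were higher and 10.1% lower; none passed after Benjamini-Hochberg adjustment over all 4713 genes. The 5 lower genes were HSP90AA1, HSPA5, HSPA1L, HSPE1 and GRPEL1. HSP90AA1, an inducible HSP90, was at 60.0 and 57.5 FPKM in the control samples, at 42.6 and 41.3 under heat and at 23.5 and 33.1 with NMN. HSPA8, the constitutive HSP70, was at 40.1 and 46.3, then 37.7 and 39.0, then 15.04 and 17.6. Against heat stress alone, NMN-supplemented samples had 2 higher and 4 lower genes of the 30 (all tested genes, 7.15% and 6.45%), and 2 of the 4 lower ones, HSPA6 and HSPH1, were chosen by the rule for being lower there. Against control 2 of the 30 were higher and 6 lower, where 25.6% and 15.7% of all tested genes were. After adjustment 4 of the 30 passed in NMN-supplemented against control, where 12.4% of all tested genes were higher and 9.17% lower. HSPA8, HSP90AA1 and HSPA5 were lower (limma adjusted P of 0.0197, 0.0237 and 0.0237) and GRPEL2 was higher (0.0426).

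**Figure D3:**
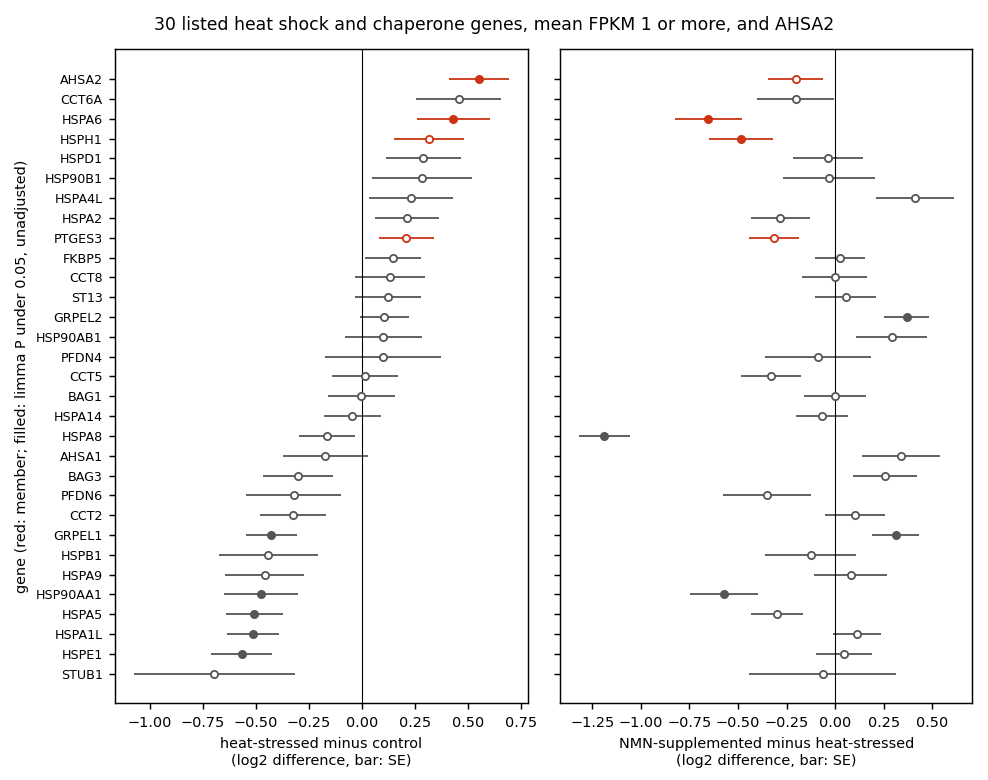
Points are log2 differences of the 30 listed chaperone genes and AHSA2 with their standard errors, heat-stressed minus control at the left and NMN-supplemented minus heat-stressed at the right. The red members lie right of 0 in the left panel and left of 0 in the right panel, as the choice of members requires. CCT6A, no member, lies above HSPA6 in the left panel. STUB1 is lowest there (-0.69, standard error 0.38), with HSPE1, HSPA1L, HSPA5 and HSP90AA1 next above it.

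Genes of cell survival and of ligands and receptors gave 7 members. MCL1, which holds back mitochondrial apoptosis, was at 3.72 and 2.13 FPKM in the control samples, at 4.40 and 4.85 under heat and at 1.39 and 3.93 with NMN, so the replicates of the latter differed more than the group means. TNFSF18 was at 1.46 and 2.01, then 4.63 and 2.72, then 1.71 and 2.69, with NMN-supplemented replicate 2 just under heat-stressed replicate 2. CCR1, a chemokine receptor, was at 1.89 and 2.32, then 2.49 and 2.98, then 1.41 and 1.44. IGIP, an immunoglobulin A-inducing protein, was at 0 and 1.1, then 1.60 and 2.05, then 1.44 and 0. AVPR1A (a vasopressin receptor), LAX1 (an adaptor of lymphocyte signalling) and LGALS3 (galectin-3, a sugar-binding protein) differed by 0.33 to 0.64 from control and by 0.33 to 0.45 from NMN-supplemented samples, as log2 of means plus 1. MCL1 was the only member on the apoptosis list, of which 20 genes were tested. Of all 4713 tested genes, 59 were members.

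Transcription accounted for 12 members. GSC, a homeobox factor of the embryonic organizer, was at 2.41 and 2.35 FPKM in the control samples, at 4.27 and 3.92 under heat and at 0.929 and 3.12 with NMN. SOX12 was at 0.315 and 0.572, then 1.26 and 2.33, then 0.534 and 1.24, and ID4, an inhibitor of basic helix-loop-helix factors, at 0.246 and 1.70, then 1.74 and 1.81, then 0.869 and 1.09. The control replicates of ID4 lay far apart and replicate 2 was just under the heat-stressed samples. MYBL1, a MYB factor of the germ line, was at 1.06 and 1.07, then 1.71 and 1.80, then 1.25 and 1.36. ELOA, the elongin A subunit that speeds RNA polymerase II, was at 2.74 and 3.26, then 4.21 and 3.27, then 1.28 and 2.26. SAP25, of the SIN3 corepressor, was at 0.509 and 1.58, then 1.99 and 2.30, then 0.536 and 0.980. TLX3 and SOX4 (developmental transcription factors), SUPT7L (a subunit of a histone acetyltransferase complex), GTF2H5 (of TFIIH), PURA (a nucleic acid binding protein) and YAF2 differed by 0.31 to 0.55 from control and by 0.21 to 0.54 from NMN-supplemented samples. YAF2, a partner of polycomb proteins, was the only member among the 67 tested genes of the chromatin list, where 59 of all 4713 were.

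RNA processing gave 7 members. IMP4, of the U3 small nucleolar ribonucleoprotein, was at 1.45 and 1.0 FPKM in the control samples, at 2.19 and 2.53 under heat and at 1.60 and 1.13 with NMN. THOC6, of the TREX complex that couples RNA processing to export, was at 2.93 and 1.20, then 3.46 and 4.38, then 2.93 and 2.43. RPP14, a subunit of ribonuclease P, was at 2.98 and 2.31, then 3.30 and 3.16, then 0.247 and 0.00355. The heat-stressed minus control difference of RPP14 was among the smallest in the group, 0.21, and its heat-stressed minus NMN-supplemented difference of 1.91 was among the largest, both as log2 of means plus 1. RNMT, RBM48, RBM12B and WDR77 had differences of 0.23 to 0.48 against control and of 0.21 to 0.23 against NMN-supplemented samples.

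Metabolism and mitochondria gave 14 members. ORMDL2, a brake on sphingolipid synthesis, was at 2.25 and 1.57 FPKM in the control samples, at 6.78 and 3.0 under heat and at 2.24 and 2.58 with NMN, with replicate 1 well above replicate 2 under heat. ADH4, an alcohol dehydrogenase that also oxidises retinol, was at 1.74 and 1.71, then 5.11 and 3.92, then 3.22 and 1.73. MOCS3, which donates sulphur for the molybdenum cofactor and for transfer RNA, was at 8.05 and 11.8, then 18.5 and 15.8, then 8.89 and 9.23. SAT2, a relative of spermidine acetyltransferase, was at 0.847 and 2.62, then 4.43 and 2.65, then 0.319 and 0, so heat-stressed replicate 2 was close to control replicate 2. PDP1, the phosphatase that activates pyruvate dehydrogenase, was at 2.87 and 2.49, then 4.75 and 3.26, then 2.35 and 3.0. MAT2B, the regulatory subunit of methionine adenosyltransferase, was at 1.5 and 1.32, then 2.58 and 2.52, then 2.13 and 1.97. MTERF2, a relative of the mitochondrial transcription termination factor, was at 0.991 and 0.842, then 1.48 and 1.89, then 0.882 and 0. The remaining nuclear members of this group, IDNK (gluconate kinase), AGPAT1 (phosphatidic acid synthesis), DHODH (pyrimidine synthesis in mitochondria), GGCX (vitamin K-dependent carboxylation) and LYPLA1 (a thioesterase), differed by 0.22 to 0.47 from control and by 0.21 to 0.45 from NMN-supplemented samples.

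COX3 and ND3, subunits of complex IV and complex I, were the only mitochondrially encoded members. COX3 was at 16210 and 17368 FPKM in the control samples, at 30038 and 22782 under heat and at 22532 and 22059 with NMN, and ND3 at 7398 and 9420, then 13401 and 9481, then 8422 and 8893. All 13 mitochondrial genes had a higher mean in heat-stressed than in control samples, and in 11 of the 13 the NMN-supplemented mean was above the heat-stressed mean, so a lower mean with NMN was seen in COX3 and ND3 alone. The lower heat-stressed sample of each was close to the highest of the other 4. COX3 shares a locus entry with ATP6 and ATP8 in the table.

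The remaining 15 members had other or less certain roles. NAP1L3, of the nucleosome assembly protein family, was at 8.82 and 7.15 FPKM in the control samples, at 17.5 and 13.1 under heat and at 7.2 and 9.44 with NMN, and CLDN20, a claudin of tight junctions, at 5.51 and 8.51, then 11.8 and 12.1, then 7.89 and 3.93. CXH4orf3, an open reading frame on the X chromosome, was at 48.0 and 46.5, then 100.1 and 79.9, then 77.6 and 71.3, so all 4 heated samples lay above control. SKP1, a core subunit of SCF ubiquitin ligases, was at 10.2 and 11.14, then 13.7 and 11.3, then 11.0 and 9.27, and was the only member among 85 tested genes of the ubiquitin ligase list. Of all 4713 tested genes, 59 were members. No member was on the other lists. The list of oxidative phosphorylation genes did not hold COX3 and ND3. The other 11 of the 15 members include FEM1B (an adaptor of CUL2 ubiquitin ligases), SPCS2 (of the signal peptidase), CAVIN2 (of caveolae) and FIGNL1 (of DNA repair). These 11 differed by 0.20 to 0.65 from control and by 0.22 to 0.36 from NMN-supplemented samples.

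**Figure D4:**
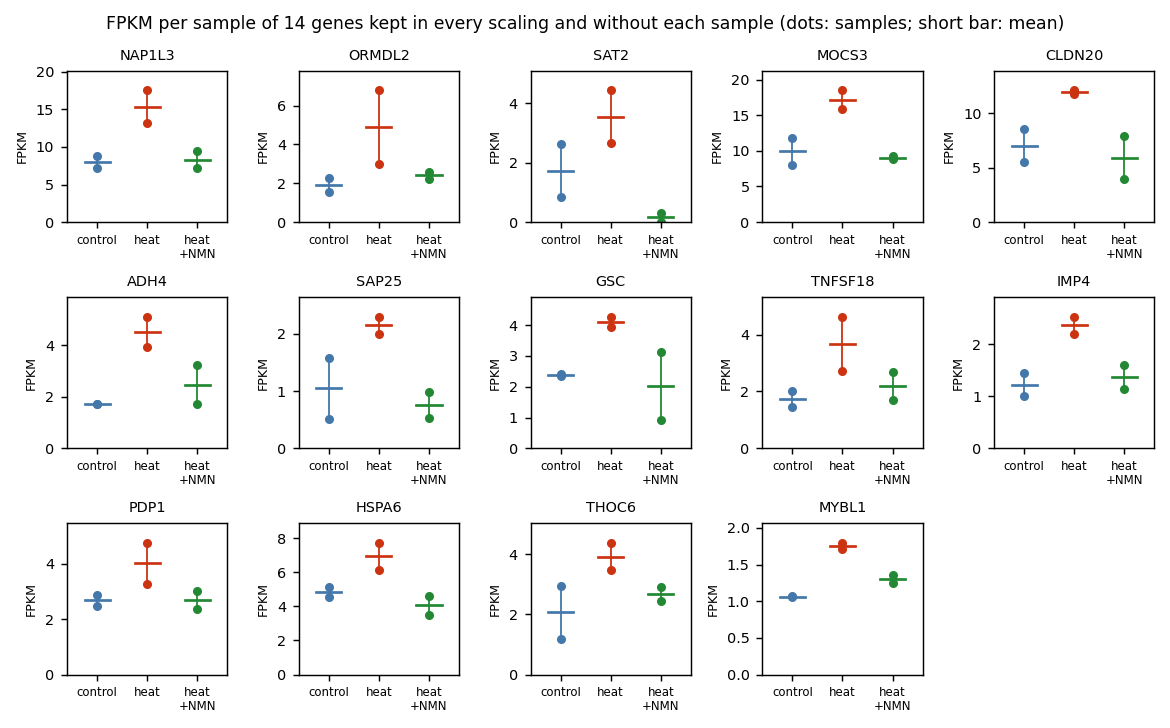
Dots are samples and short bars are group means in FPKM, each vertical axis from 0, for the 14 genes that met the rule under all scalings and without each sample in turn. The heat-stressed replicates of ORMDL2 lie at 6.78 and 3.0 and those of CLDN20 at 11.8 and 12.1, and heat-stressed samples lie above the other 4 for each gene, as the rule requires.

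NMN-supplemented against control is the comparison the rule does not set directly, although it bounds both groups from above. The NMN-supplemented samples overlapped the controls in 40 members, were both above in 12 and both below in 7 (20.3% and 11.9%, against 43.5% and 26.4% of tested genes). At an unadjusted limma P under 0.05, 2 members were higher and 4 lower, against 25.6% and 15.7% of tested genes. The median difference was 0.06 (log2, quartiles -0.10 and 0.23) over members and 0.11 over tested genes, with a median standard error of 0.18 and 0.16. Because a gene raised further by NMN could not be a member, the low share is limited by the choice of members. A P that misses the threshold does not show that the levels were equal.

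RPP14 fell by 1.70 (log2, standard error 0.17, limma adjusted P = 0.0197), and CXH4orf3 rose by 0.65 (standard error 0.14, adjusted P = 0.0350). The value of RPP14 is uncertain because nearly all of its exonic bases are shared with another gene. These 2 members passed after adjustment, where 12.4% of tested genes were higher and 9.17% lower. MAT2B had a difference of 0.34 (adjusted P = 0.0833), SAT2 of -1.17 (adjusted P = 0.0745), CCR1 of -0.35 (adjusted P = 0.110) and ELOA of -0.55 (adjusted P = 0.114), and none of these 4 passed after adjustment. Without control replicate 2 the unadjusted limma P was 0.0987 for SAT2, 0.0959 for MAT2B, 0.169 for CCR1 and 0.175 for ELOA, while RPP14 and CXH4orf3 stayed under 0.05 without each sample in turn. Leaving out NMN-supplemented replicate 1 or 2 also ended the calls of MAT2B and CCR1, replicate 2 that of SAT2, and leaving out any of the 6 samples except NMN-supplemented replicate 2 that of ELOA. An exact permutation test of 2 against 2 samples cannot go below 0.33.

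In the contrasts that chose the members, 29 of 59 had an unadjusted limma P under 0.05 in heat-stressed against control and 17 of 59 in NMN-supplemented against heat-stressed, and none after adjustment. The background shares are those given with the chaperones, and nothing is read from the counts. The members just inside the limits were AHSA2 (smaller log2 difference 0.20), FIGNL1 (0.20) and SKP1 (0.21). Just outside were ZXDC, EXOSC9, EIF1AX and GNAI3, with smaller differences of 0.1998, 0.1996, 0.1972 and 0.1969.

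Some members share exons with another gene, and the library kit did not keep strand, so their values are uncertain. RPP14 (chromosome 13, 40062178 to 40078179) shared 6633 of its 6814 exonic bases with LOC100515579 on the same strand. LOC100515579 was at 0.0208, 0.0209, 0.0207 and 0.0208 FPKM in the control and heat-stressed samples and at 2.90 and 3.71 in the NMN-supplemented samples. The values of both genes together stood at 3.0 and 2.33 in the control samples, at 3.32 and 3.18 under heat and at 3.14 and 3.72 with NMN, so the fall of RPP14 was not seen in the sum. MTERF2 lay wholly within exons of CRY1 (2397 bases), and SAP25 shared 2545 of 2552 bases with LRCH4. Added together, SAP25 and LRCH4 stood at 0.839 and 2.2 in control and 2.13 and 2.41 under heat, so control replicate 2 lay above heat-stressed replicate 1. ORMDL2 shared 252 of 1029 exonic bases with DNAJC14 on the other strand, which was at 5.82 and 5.35, then 3.19 and 4.01, then 2.38 and 2.61. Their sum was 8.07 and 6.92 in control and 9.97 and 7.0 under heat, so the groups overlapped. Most exonic bases of ORMDL2 are not shared with DNAJC14, so this sum cannot tell how reads were divided between them. SAP25 met the rule by its own listed values and not in the sum with LRCH4. Exons overlapped another gene on the same strand in 6 of 59 members (10.2%, against 3.52% of tested genes). They overlapped a gene on the other strand in 14 (23.7%, against 21.2%), and on either strand in 19 (32.2%, against 24.3%).

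**Figure D5:**
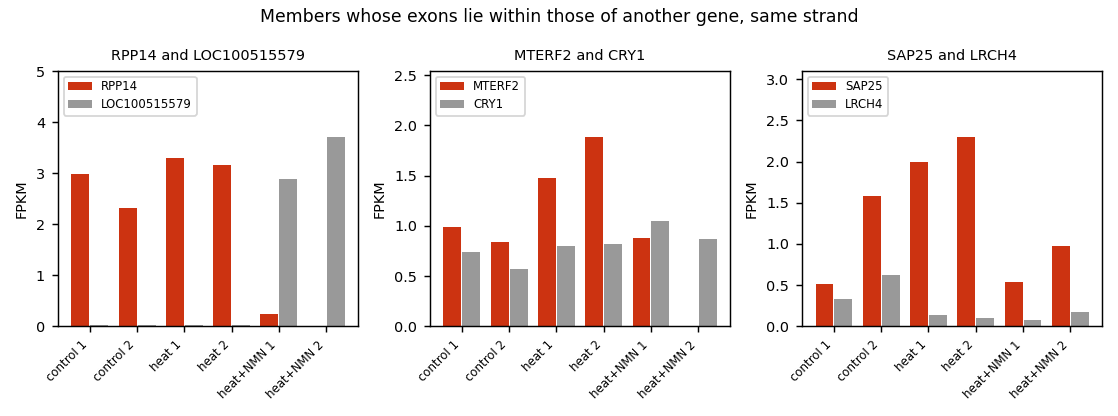
Bars are FPKM per sample, from 0, for RPP14, MTERF2 and SAP25 in red and for the same-strand gene that shares their exons in grey. RPP14 and LOC100515579 exchange levels between the heat-stressed and the NMN-supplemented samples, while CRY1 lies between 0.569 and 1.05 and LRCH4 between 0.0708 and 0.619.

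A feature that the rule did not use was exon number. Every annotated transcript had a single exon in 10 of 59 members (16.9%, against 7.68% of tested genes): CLDN20, COX3, CXH4orf3, HSPA6, IGIP, MOCS3, NAP1L3, ND3, SOX12 and SOX4. This was noticed after the values were seen, and the tested genes include names that the rule drops from the members. The 352 single-exon genes outside the group had a median difference from the control mean of 0.05 and -0.03 (log2) in heat-stressed replicates 1 and 2. The median longest transcript was 2608 bases in members and 2941 in tested genes, and the median GC content 45.7% and 47.6%. Chromosome 4 held 7 members (11.9%, against 5.84% of tested genes). PURA and IGIP lay 74 bases apart on chromosome 2 on the same strand, and COX3 and ND3 69 bases apart in the mitochondrial genome.

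Membership depended on single samples. Without heat-stressed replicate 1, 30 of the 59 members still met the rule, and without replicate 2, 50 did. The rule was met by 36 members under each of 3 other scalings, and by 14 when each sample was left out in turn. These 14 were NAP1L3, ORMDL2, SAT2, MOCS3, CLDN20, ADH4, SAP25, GSC, TNFSF18, IMP4, PDP1, HSPA6, THOC6 and MYBL1, and all 14 also met the rule under the scalings. HSPH1, PTGES3 and AHSA2 were not among them. Leaving out a sample cannot break the order that the rule asks for, so only the log2 limits and the minimum mean were rechecked. In SAT2 heat-stressed replicate 2 was at 2.65 FPKM against 2.62 in control replicate 2. In TNFSF18 it was at 2.72 against 2.69 in NMN-supplemented replicate 2.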

How the data were processed

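RNA of 6 porcine oocyte samples (2 control, 2 heat-stressed, 2 NMN-supplemented) was sequenced. The deposited FPKM values were made by the authors with Cufflinks 2.2.1 and Cuffnorm, per the labels, after trimming and alignment to the pig genome as the study's methods state; the kit did not keep strand. The deposited columns of the authors' own Cuffdiff comparisons were not used. The deposited table holds no counts, so depth and the counting error are unknown. No column of another sample was present (0 columns).

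Members were found by the rule given at the start of the report. The members and gene lists were chosen with earlier results of these data known, and the role groups after the values were seen. The text names the 15 members with the largest smaller difference, the 10 most abundant, and the 5 with the smallest P in each direction for NMN-supplemented against control. It also names those on a list, those nearest the limits, and members of the 14 that met the rule under all scalings and without each sample. Genes with a mean of at least 1 FPKM were tested on log2(FPKM + 1) with limma 3.58.1 (trend, empirical Bayes) in R 4.3.3, 3 groups in 1 fit, with Benjamini-Hochberg adjustment over all tested genes. A pseudocount of 1 understates the change of low genes. The scripts were tested on simulated data. Exons, gene starts and sequences came from RefSeq, Sscrofa11.1, to which all 4713 tested genes were matched. Alternatives changed the pseudocount, minimum, scaling, limits and samples. Same-numbered samples did not deviate together (correlations -0.03, 0.01 and -0.01).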

Additional observations from a re-analysis of the deposited data

How the results depend on the processing

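The number of members, 59, was 76 with a pseudocount of 0.1, 129 with a minimum mean of 0.1 FPKM, 15 with a minimum of 5 and 136 with none. It was 68 with equal medians, 71 with quantile normalization and 43 with equal sums without the mitochondrial genes and LOC100513953. It was 96, 32 and 13 with log2 limits of 0.1, 0.3 and 0.5, 99 with no gene dropped for its name, and 71 to 194 without 1 sample. Genes with P under 0.05 numbered 1948 for NMN-supplemented against control, and 3236, 791 and 3700 with a minimum of 0.1, of 5 and none (1233 to 1941 without 1 sample). For heat-stressed against control they numbered 1074, and 1865, 468 and 2388 (648 to 1015). For NMN-supplemented against heat-stressed they numbered 641, and 1161, 266 and 1557 (327 to 701). A higher minimum tests fewer genes. Members with P under 0.05 for NMN-supplemented against control numbered 6, and 1 of 15 with a minimum of 5. The median NMN-supplemented minus control difference of all tested genes, 0.11, turned to -0.01 with a minimum of 0.1 and to -0.0043 with none, where more low genes enter. The median of the members and the 6 members named with a P under 0.05 kept their direction in the alternatives run. With the replicate block the counts were 1815, 937 and 527 genes and 6 members; ELOA then had an unadjusted limma P of 0.0605. The numbers name samples and do not pair them. Depth is unknown, so for members near 1 FPKM the precision rests on 2 samples a group.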

Other observations

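Among the genes that met every condition on values but were dropped for their names, 3 ribosomal protein genes were higher under heat at low levels. RPL37 was at 2.99 and 2.96 FPKM in the control samples, at 3.91 and 3.37 under heat and at 2.03 and 2.12 with NMN, both below control. RPSA was at 2.74 and 2.98, then 4.36 and 3.33, then 2.84 and 3.13, and RPS3A at 0.618 and 1.37, then 1.39 and 1.60, then 1.146 and 0.251. MRPL51, a mitochondrial ribosomal protein, was at 1.72 and 4.08, then 4.40 and 4.38, then 2.51 and 0, so its NMN-supplemented replicates lay far apart. LOC100627398 was at 0 and 2.72, then 7.63 and 5.01, then 0 in both NMN-supplemented samples. These 40 genes had a median ratio of 1.77 over control and 1.73 over NMN-supplemented samples, against 1.61 and 1.45 for the 59 members. The median of 1.73 leaves out LOC100627398 and LOC100626673, whose NMN-supplemented mean was 0 and which have no ratio.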
